A study of Homo sapiens with 6 samples.

Results

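Genes of ribosome biogenesis and RNA polymerase I were followed in A375 cells, an established human melanoma line that carries mutant BRAF, after short exposure to 2 kinase inhibitors. The set was a list of 50 genes chosen by name, with earlier results of these data known. Of these, 45 had a probe set that named that gene alone, out of 19676 genes measured on the arrays. The other 5 had no such probe set. The probe sets listing NOP56, DKC1 or BOP1 carried several gene symbols, and no listed probe set named DDX18 or GNL3. Each gene was read from its probe set with the highest mean log2 intensity over the 6 arrays. Levels are therefore compared between arrays and never between genes.

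Each condition was represented by 1 Affymetrix array. At 16 h there was vemurafenib (an inhibitor of mutant BRAF, at 10 µM) and its solvent control, DMSO. At 6 h there was vemurafenib (10 µM), AT9283 (an inhibitor of Aurora and JAK kinases, at 100 nM), the 2 drugs together, and DMSO. AT9283 and the combination were not analysed here at 16 h. All conditions came from 1 cell line, and with 1 array each no difference below has a replicate check. The number of arrays limits the precision. A gene was said to have risen or fallen when it differed at least 2-fold (1 on the log2 scale) and the higher array read at least 64 (log2 6). All 45 genes reached that floor on both DMSO arrays. The rule measures size and gives no p-value. Counts by it are set beside a background, the share that passed it in the same direction among all genes whose higher array reached the floor in that comparison (8938 to 9469 of the 19676 genes). Counts below 0 and medians are set beside those of the 8885 genes with a mean log2 intensity of at least 6.

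Ribosome assembly begins in the nucleolus. There RNA polymerase I transcribes the ribosomal DNA into a long precursor, small nucleolar RNPs (snoRNPs) guide the chemical modification of that precursor, and separate sets of factors process and fold it into the small and the large ribosomal subunit. Production is high in growing and in cancer cells. ERK signalling and MYC, a transcription factor that binds the hexamer CACGTG with its partner MAX, are known to promote it. The arrays read the messenger RNAs of the assembly machinery and not ribosomal RNA itself. Labelling began from a fixed mass of total RNA, so a difference is relative to the rest of the messenger RNA. The readings show neither the number of cells nor the amount of RNA per cell.

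The promoters are shown first because the members' sequences can be read beside their response. RefSeq start sites on GRCh38.p14 gave a 300-base window, 250 bases before the start and 50 after it, for 39 of the 45 genes. CACGTG, which reads the same on both strands, stood in 15 of the 39 windows (38.5%), against 10.9% of the 7474 windows of genes with a mean log2 intensity of at least 6 and 7.43% of all 27305 windows. CCGGAAG, searched on both strands, stood in 16 of 39 (41.0%), against 22.1% and 10.7%. GGGCGG was as frequent in members (28 of 39, 71.8%) as in the windows of genes at that level (72.0%). The exact palindromic core motif of NRF1 was found in 3 members (7.69%), against 2.74% of the windows of genes at that level. None of these 4 motifs contains another, and a match describes letters in a window and not a bound site.

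Among members with a window, CACGTG stood in 7 of the 14 that fell at least 2-fold with vemurafenib at 16 h and in 8 of the other 25. By role it stood in none of the 3 RNA polymerase I windows, 1 of 3 snoRNP, 9 of 18 small-subunit, 4 of 10 large-subunit and 1 of 5 multifunctional nucleolar windows. The following 5 windows belong to the members with CACGTG that had the lowest differences at 16 h, and capitals mark CACGTG, and CCGGAAG on either strand. MRTO4 lies at chr1:19251555-19251854 on the plus strand, BYSL at chr6:41921249-41921548 on the plus strand, RRP9 at chr3:51941855-51942154 on the minus strand, LTV1 at chr6:143843088-143843387 on the plus strand and WDR43 at chr2:28894417-28894716 on the plus strand. Counted from the first transcribed base as 0, the hexamer begins at 14 in MRTO4, 28 in BYSL, -5 in RRP9, 28 in LTV1 and 3 in WDR43, so it lies close to the start in each. RRP9 and LTV1 also hold CCGGAAG, which lies upstream of the start in both.
MRTO4: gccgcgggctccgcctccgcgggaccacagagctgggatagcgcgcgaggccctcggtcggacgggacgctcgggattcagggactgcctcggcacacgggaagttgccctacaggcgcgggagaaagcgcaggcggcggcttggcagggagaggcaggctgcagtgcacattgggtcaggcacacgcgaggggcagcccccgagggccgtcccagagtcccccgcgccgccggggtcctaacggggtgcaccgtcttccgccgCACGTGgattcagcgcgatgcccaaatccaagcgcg
BYSL: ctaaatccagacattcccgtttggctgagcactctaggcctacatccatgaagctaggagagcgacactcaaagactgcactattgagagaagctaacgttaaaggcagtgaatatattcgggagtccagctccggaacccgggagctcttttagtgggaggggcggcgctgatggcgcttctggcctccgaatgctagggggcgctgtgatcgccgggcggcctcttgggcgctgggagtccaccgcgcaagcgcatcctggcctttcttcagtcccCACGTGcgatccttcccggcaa
RRP9: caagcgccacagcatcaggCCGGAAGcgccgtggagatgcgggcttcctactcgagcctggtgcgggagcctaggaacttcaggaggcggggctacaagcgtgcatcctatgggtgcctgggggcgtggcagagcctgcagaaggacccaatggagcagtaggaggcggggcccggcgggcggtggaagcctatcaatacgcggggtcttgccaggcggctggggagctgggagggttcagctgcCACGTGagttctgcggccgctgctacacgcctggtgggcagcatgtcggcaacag
LTV1: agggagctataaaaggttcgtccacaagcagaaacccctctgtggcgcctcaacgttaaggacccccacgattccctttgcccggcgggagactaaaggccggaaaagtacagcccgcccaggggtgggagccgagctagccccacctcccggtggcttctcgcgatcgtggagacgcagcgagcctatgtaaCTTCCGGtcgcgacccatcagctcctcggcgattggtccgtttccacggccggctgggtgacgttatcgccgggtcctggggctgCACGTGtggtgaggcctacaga
WDR43: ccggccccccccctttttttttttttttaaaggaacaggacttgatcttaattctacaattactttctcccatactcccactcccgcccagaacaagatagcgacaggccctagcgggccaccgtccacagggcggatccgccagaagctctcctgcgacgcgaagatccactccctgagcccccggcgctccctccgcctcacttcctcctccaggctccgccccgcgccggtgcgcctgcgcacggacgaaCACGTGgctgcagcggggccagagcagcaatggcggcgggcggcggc

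The next 3 windows hold neither CACGTG nor CCGGAAG. LYAR, at chr4:4290105-4290404 on the minus strand, had the lowest difference of all members at 16 h, while NHP2, at chr5:178153836-178154135 on the minus strand, and NPM1, at chr5:171387599-171387898 on the plus strand, had those nearest to 0. Windows without either motif thus stand at both ends of the members' range. CACGTG also stood in the windows of FBL (-0.26 at 16 h) and NAT10 (-0.31), which were among the members nearest to 0.
LYAR: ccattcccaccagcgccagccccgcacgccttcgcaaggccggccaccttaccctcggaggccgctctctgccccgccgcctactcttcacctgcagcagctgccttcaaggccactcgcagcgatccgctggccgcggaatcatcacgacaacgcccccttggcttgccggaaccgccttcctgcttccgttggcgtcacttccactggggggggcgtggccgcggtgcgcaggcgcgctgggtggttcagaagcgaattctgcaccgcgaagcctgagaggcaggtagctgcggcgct
NHP2: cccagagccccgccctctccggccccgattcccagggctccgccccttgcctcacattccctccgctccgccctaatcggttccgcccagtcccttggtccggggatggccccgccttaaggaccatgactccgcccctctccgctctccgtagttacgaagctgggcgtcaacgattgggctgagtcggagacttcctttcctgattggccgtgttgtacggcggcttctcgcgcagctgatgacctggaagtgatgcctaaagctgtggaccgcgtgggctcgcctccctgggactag
NPM1: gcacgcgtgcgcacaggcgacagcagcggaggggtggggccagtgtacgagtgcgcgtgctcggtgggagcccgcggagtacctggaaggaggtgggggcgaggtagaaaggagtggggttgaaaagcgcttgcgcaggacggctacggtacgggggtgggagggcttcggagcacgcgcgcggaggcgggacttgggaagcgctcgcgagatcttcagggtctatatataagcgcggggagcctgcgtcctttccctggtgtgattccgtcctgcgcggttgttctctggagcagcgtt

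The targets of the drug and the identity of the cells were read first. DUSP6, an ERK-induced phosphatase, was under the floor of 64 with vemurafenib against 779 in DMSO at 16 h, and under it with vemurafenib against 726 in DMSO at 6 h. Taken against the floor, it was at least 12.2-fold lower at 16 h and at least 11.4-fold lower at 6 h. MYC was under the floor on all 3 arrays with vemurafenib and above it on the 3 without. Against the floor it was at least 2.36-fold lower with vemurafenib than in DMSO (151) at 16 h, and at least 2.72-fold lower than in DMSO (174) at 6 h. MAX was above the floor on all 6 arrays. The melanocyte-lineage factors MITF and SOX10 were above the floor on all 6 arrays, whereas the pigment-cell markers PMEL, MLANA and TYR were below it on all. S100A1 was also below the floor on all 6. S100B was above it on the vemurafenib array at 16 h (70.8) and below it on the other 5. PTPRC, CD3E, PECAM1, CDH5, EPCAM and ALB, which mark blood, endothelial, epithelial and liver cells, were below the floor on every array. COL1A1 was above it, at log2 6.75 to 6.95.

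With vemurafenib at 16 h, the members' messenger RNAs were lower in every role group. Of 45 members, 17 fell at least 2-fold (background 5.79% of 9469 genes) and none rose (background 5.19%). At 1.5-fold, 37 were lower (background 14.9%). All 45 differences were below 0, as were 52.5% of the genes with a mean log2 intensity of at least 6, and the members' median was -0.92 on the log2 scale against -0.03 for those genes. Against the average of the 2 DMSO arrays, 27 members fell and the median was -1.07. That count has no background, as the share over all genes was not taken for this control. The average includes the DMSO array at 6 h, on which most members read higher than in DMSO at 16 h. The rule's edge ran through a dense part of the range: NOC3L (-1.05), NOP58 (-1.02) and PWP2 (-1.01) lay just inside it, and RRP1B (-0.99), WDR75 (-0.97) and IMP4 (-0.96) just outside.

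**Figure D1:**
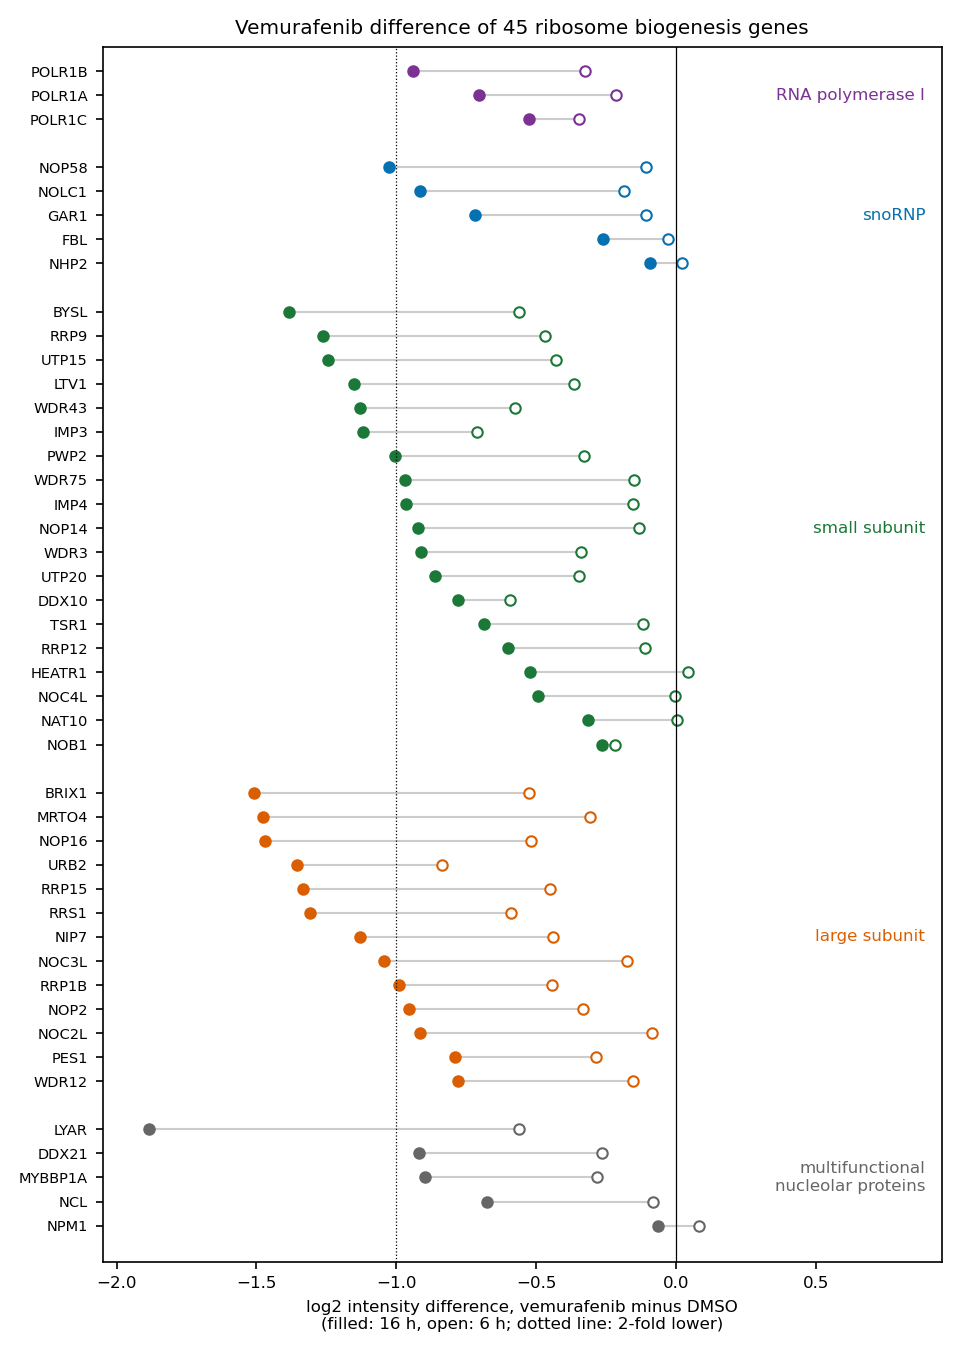
Log2 difference of vemurafenib minus DMSO for each of the 45 members (1 array each), at 16 h (filled points) and 6 h (open points), grouped by role. All filled points lie left of 0, from LYAR at -1.88 to NPM1 at -0.07, and every open point except those of NHP2, HEATR1, NAT10 and NPM1 lies left of 0 as well.

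None of the 3 measured RNA polymerase I subunits passed 2-fold at 16 h, and POLR1A and POLR1B passed 1.5-fold. POLR1A, the largest catalytic subunit, read 72.8 with vemurafenib against 119 in DMSO at 16 h, and 118 with vemurafenib, 148 with the combination and 167 with AT9283 against 137 in DMSO at 6 h. POLR1B, the other subunit of the catalytic core, read 315 with vemurafenib against 604 in DMSO at 16 h, and 628 with vemurafenib, 706 with the combination and 786 with AT9283 against 787 in DMSO at 6 h. POLR1C, a subunit shared with RNA polymerase III, read 223 with vemurafenib against 321 in DMSO at 16 h, and 309 with vemurafenib, 342 with the combination and 439 with AT9283 against 393 in DMSO at 6 h. On these probe sets the vemurafenib array was the lowest at its time for all 3 subunits. Their log2 differences at 16 h were -0.70 for POLR1A, -0.94 for POLR1B and -0.53 for POLR1C. The other probe set of POLR1A at the floor gave -0.43 at 16 h and 0.11 at 6 h, so its direction at 6 h, -0.22 on the probe set used, differed between them. At 16 h, other probe sets of POLR1B gave -0.55, -0.36 and -0.46, and the other of POLR1C gave -0.88.

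The 5 snoRNP members spread from a 2-fold fall to almost no difference. NOP58, a core protein of the box C/D particles, read 788 with vemurafenib against 1603 in DMSO at 16 h, and 1784 with vemurafenib, 1801 with the combination and 1913 with AT9283 against 1925 in DMSO at 6 h. By the probe sets used it was the one snoRNP member that fell, and it did so at 16 h, with all 4 arrays at 6 h close together. NOLC1, a chaperone of both particle classes, differed by -0.92 at 16 h by the probe set used and by -1.14, past 2-fold, by each of its other 2. GAR1, a core protein of the box H/ACA particles, differed by -0.72. FBL, the methyltransferase of the box C/D particles, read 2185 with vemurafenib against 2622 in DMSO at 16 h, a log2 difference of -0.26, and 2450 with vemurafenib, 2398 with the combination and 2499 with AT9283 against 2500 in DMSO at 6 h. NHP2, another H/ACA core protein, read 4050 with vemurafenib against 4316 in DMSO at 16 h, and 4545 with vemurafenib, 4287 with the combination and 4305 with AT9283 against 4477 in DMSO at 6 h. The vemurafenib and DMSO readings of these last 2 genes lay close together at both times.

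At 16 h all 19 small-subunit factors were below 0 (background 52.5%) and 7 of them fell (background 5.79%). Among the 7 were the early processome components RRP9, UTP15, WDR43, IMP3 and PWP2. BYSL, the bystin protein of the late nucleolar precursor, was the lowest of the group. It read 152 with vemurafenib against 397 in DMSO at 16 h, 2.61-fold lower, and 327 with vemurafenib, 389 with the combination and 503 with AT9283 against 482 in DMSO at 6 h. RRP9, a protein of the snoRNP at the heart of the processome, read 93.8 with vemurafenib against 225 in DMSO at 16 h, and 194 with vemurafenib, 210 with the combination and 259 with AT9283 against 269 in DMSO at 6 h. UTP15, of the processome subcomplex tied to rDNA transcription, read 95.5 with vemurafenib against 226 in DMSO at 16 h, and 213 with vemurafenib, 255 with the combination and 322 with AT9283 against 286 in DMSO at 6 h. Both vemurafenib-treated arrays at 6 h were below the DMSO array for each of these genes, and AT9283 alone read above DMSO for BYSL and UTP15 and below it for RRP9.

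LTV1, which acts late in small-subunit assembly and its export, read 161 with vemurafenib against 357 in DMSO at 16 h, and 369 with vemurafenib, 415 with the combination and 503 with AT9283 against 474 in DMSO at 6 h. WDR43, a partner of UTP15 in the same subcomplex, read 201 with vemurafenib against 440.0 in DMSO at 16 h, and 467 with vemurafenib, 566 with the combination and 746 with AT9283 against 696 in DMSO at 6 h. IMP3, of the processome subcomplex built on MPHOSPH10, read 370 with vemurafenib against 804 in DMSO at 16 h, and 544 with vemurafenib, 673 with the combination and 881 with AT9283 against 891 in DMSO at 6 h. These 3 genes shared the order vemurafenib, combination, DMSO at 6 h, lowest first. PWP2, a scaffold of another processome subcomplex, read 178 with vemurafenib against 358 in DMSO at 16 h, and 338 with vemurafenib, 389 with the combination and 439 with AT9283 against 425 in DMSO at 6 h. Its fall was not shared by its other probe set at the floor, which differed by 0.16.

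The other 12 small-subunit factors ran from WDR75 at -0.97 to NOB1 at -0.27. NOB1, the endonuclease that makes the last cut of the small-subunit RNA, read 567 with vemurafenib against 682 in DMSO at 16 h, and 731 with vemurafenib, 774 with the combination and 854 with AT9283 against 851 in DMSO at 6 h. NAT10, which acetylates ribosomal RNA, differed by -0.31, NOC4L by -0.49 and HEATR1, a large scaffold of the early processome, by -0.52. The processome factors WDR75, IMP4, NOP14, WDR3 and UTP20 lay between -0.97 and -0.86, close under the size rule, and DDX10, a helicase, differed by -0.78. The group median was -0.92.

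Large-subunit factors had the lowest median of the 5 role groups, -1.13, with 8 of 13 past 2-fold (background 5.79%) and all 13 past 1.5-fold (background 14.9%). The groups are small, and their ranges overlapped: -1.51 to -0.78 for the large subunit and -1.38 to -0.27 for the small subunit. BRIX1, an early large-subunit factor, read 123 with vemurafenib against 351 in DMSO at 16 h, 2.84-fold lower, and 318 with vemurafenib, 398 with the combination and 535 with AT9283 against 457 in DMSO at 6 h. MRTO4, a relative of the ribosomal stalk protein that holds its place during assembly, read 293 with vemurafenib against 814 in DMSO at 16 h, and 839 with vemurafenib, 910 with the combination and 1060 with AT9283 against 1037 in DMSO at 6 h. NOP16, an early large-subunit factor in yeast, read 650 with vemurafenib against 1799 in DMSO at 16 h, and 1787 with vemurafenib, 2275 with the combination and 2655 with AT9283 against 2559 in DMSO at 6 h. In these 3 genes AT9283 alone gave the highest reading of the 4 arrays at 6 h.

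URB2, needed for large-subunit processing in yeast, was already the lowest member at 6 h. It read 91.8 with vemurafenib against 235 in DMSO at 16 h, and 150 with vemurafenib, 193 with the combination and 301 with AT9283 against 268 in DMSO at 6 h. RRP15, a component of large-subunit precursors, read 245 with vemurafenib against 618 in DMSO at 16 h, and 586 with vemurafenib, 681 with the combination and 840.0 with AT9283 against 801 in DMSO at 6 h. RRS1, which helps to bring a smaller ribosomal RNA into the large subunit in yeast, read 477 with vemurafenib against 1183 in DMSO at 16 h, and 1118 with vemurafenib, 1358 with the combination and 1766 with AT9283 against 1682 in DMSO at 6 h. The vemurafenib array at 16 h was the lowest of all 6 for each of these genes. NIP7, a pre-rRNA processing factor, read 503 with vemurafenib against 1101 in DMSO at 16 h, and 870 with vemurafenib, 1017 with the combination and 1300 with AT9283 against 1179 in DMSO at 6 h. NOC3L, whose yeast counterpart escorts large-subunit precursors, read 494 with vemurafenib against 1020 in DMSO at 16 h, and 937 with vemurafenib, 1087 with the combination and 1153 with AT9283 against 1057 in DMSO at 6 h. NOC3L alone among these 5 read higher with the combination than in DMSO.

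The large-subunit factors short of 2-fold were RRP1B (-0.99), the RNA methyltransferase NOP2 (-0.95), NOC2L (-0.92), and PES1 (-0.79) and WDR12, which act in 1 complex with the unmeasured BOP1. WDR12 had the smallest difference of the group, -0.78, and read 407 with vemurafenib against 697 in DMSO at 16 h, and 747 with vemurafenib, 750 with the combination and 794 with AT9283 against 831 in DMSO at 6 h.

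The multifunctional nucleolar proteins held both extremes of the list. LYAR, a zinc-finger nucleolar protein linked to rRNA synthesis and cell growth, read 354 with vemurafenib against 1305 in DMSO at 16 h, 3.69-fold lower, and 1220 with vemurafenib, 1487 with the combination and 1784 with AT9283 against 1800 in DMSO at 6 h. Its other probe set at the floor gave -1.90, against -1.88 for the one used. NPM1, the abundant nucleolar chaperone, read 9454 with vemurafenib against 9898 in DMSO at 16 h, and 10581 with vemurafenib, 10524 with the combination and 10255 with AT9283 against 10001 in DMSO at 6 h. Its 6 readings lay within a narrow range and its difference at 16 h was -0.07, or -0.20 and -0.17 by its other probe sets. NCL, which binds nascent pre-rRNA, read 2570 with vemurafenib against 4108 in DMSO at 16 h, a log2 difference of -0.68, and 3550 with vemurafenib, 3746 with the combination and 3820 with AT9283 against 3761 in DMSO at 6 h. The helicase DDX21 differed by -0.92 and MYBBP1A, a nucleolar partner of MYB, by -0.90, although another probe set of MYBBP1A gave -1.51. Across the list, 24 further probe sets of 17 members reached the floor at 16 h, and 23 of them were below 0, PWP2 holding the exception. Of the 24, 14 lay within 0.25 of the probe set used.

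**Figure D2:**
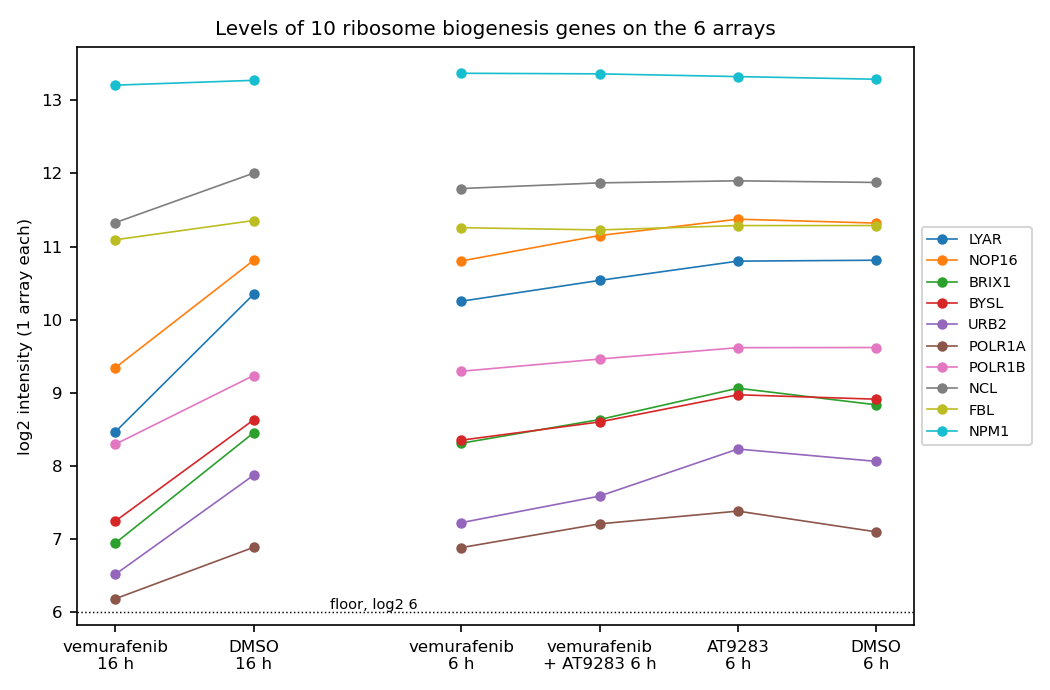
Log2 intensity of 10 members on each of the 6 arrays, vemurafenib and DMSO at 16 h on the left and the 4 arrays at 6 h on the right, with 1 point per array and lines joining arrays of 1 time. LYAR, NOP16, BRIX1, BYSL and URB2 drop steeply in the 16 h pair, while NPM1 and FBL stay nearly level.

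At 6 h the same direction was present at a smaller size. No member fell 2-fold with vemurafenib (background 2.14%) or rose (1.03%), none was 1.5-fold higher (3.32%), and 4 were at least 1.5-fold lower (background 5.05%): URB2 at -0.84, IMP3 at -0.71, and DDX10 and RRS1 at -0.59 each. Differences were below 0 for 41 of 45 members, against 45.6% of genes with a mean log2 intensity of at least 6, and the median was -0.29 against 0.02. Large-subunit factors again had the lowest group median, -0.44, with 13 of 13 below 0. The small-subunit median was -0.33, the RNA polymerase I median -0.32, the multifunctional median -0.27 and the snoRNP median -0.11. Against the average of the 2 DMSO arrays the members' median at 6 h was -0.15, since DMSO itself read lower for these genes at 16 h, as given further on.

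Every member's difference was lower at 16 h than at 6 h, whereas 54.8% of genes with a mean log2 intensity of at least 6 were. The median change was -0.61, from LYAR with -1.32 to NOB1 with -0.05. The difference at 6 h was a median of 31.6% of that at 16 h (quartiles 15.3% and 37.3%), with NOB1 highest at 82.8%. Across the 45 members the 2 vemurafenib differences, which share no array, correlated with r = 0.74 (Pearson) and rho = 0.75 (Spearman), given as a description since genes are not independent and the 8885 genes had an r of 0.72. Between the vemurafenib arrays themselves, 15 members were at least 2-fold lower at 16 h than at 6 h (background 3.7%) and none was 2-fold higher (background 4.12%), with a median of -0.92.

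The DMSO arrays set the size of a difference without drug. None of the 45 members was 2-fold lower in DMSO at 16 h than in DMSO at 6 h (background 0.0883%), and WDR43, at -0.66, was the one member 1.5-fold lower (background 1.13%). Yet 43 of 45 were below 0, against 57.3% of genes with a mean log2 intensity of at least 6, with a median of -0.28 against -0.04. NCL at 0.13 and FBL at 0.07 were the exceptions. This drift was close in size to the members' median difference with vemurafenib at 6 h, and its group medians lay close together, from -0.34 for the large subunit to -0.26 for the multifunctional proteins and the snoRNPs. Time in culture and any difference in how the 6 h and 16 h arrays were handled or processed cannot be told apart.

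Differences of these genes with AT9283 were small, and more of them lay above 0 than below it. With AT9283 alone no member passed either size (backgrounds 0% lower and 0.0224% higher at 2-fold, 0.0671% and 0.101% at 1.5-fold), 13 of 45 were below 0 (background 43.9%), and the median was 0.05 against 0.01. The range was -0.09 to 0.28, with POLR1A highest and BRIX1 next at 0.23. With the combination no member fell relative to DMSO (background 1.93%) or rose (0.639%), and none was 1.5-fold lower (4.24%) or higher (2.58%). Differences were below 0 for 39 of 45 (background 39.7%), and the median was -0.14 against 0.05. URB2 was lowest at -0.47 and POLR1A highest at 0.11. Against the average of the 2 DMSO arrays that median turned to 0.01, and that of AT9283 alone became 0.19.

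Set against vemurafenib alone, the combination read higher for 38 of 45 members. The median was 0.17 against 0.03 for genes with a mean log2 intensity of at least 6, of which 41.9% were below 0, and no member passed 2-fold (backgrounds 0.322% lower and 0% higher) or 1.5-fold (0.956% and 0.244%). UTP20 had the highest value, 0.38, and RRP12 the lowest, -0.13. Large-subunit factors had a median of 0.23, small-subunit factors and RNA polymerase I 0.17, and snoRNP genes 0.01. AT9283 minus DMSO and the combination minus vemurafenib share no array, and 31 of 45 members (68.9%) were higher with AT9283 in both, against 39.8% of those genes, while 6 were lower in both, against 25.9%. Most members thus read lower in the combination than in DMSO at 6 h and higher than with vemurafenib alone. Against the average of the 2 DMSO arrays, 21 of 45 read lower in the combination, with no share over all genes taken.

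**Figure D3:**
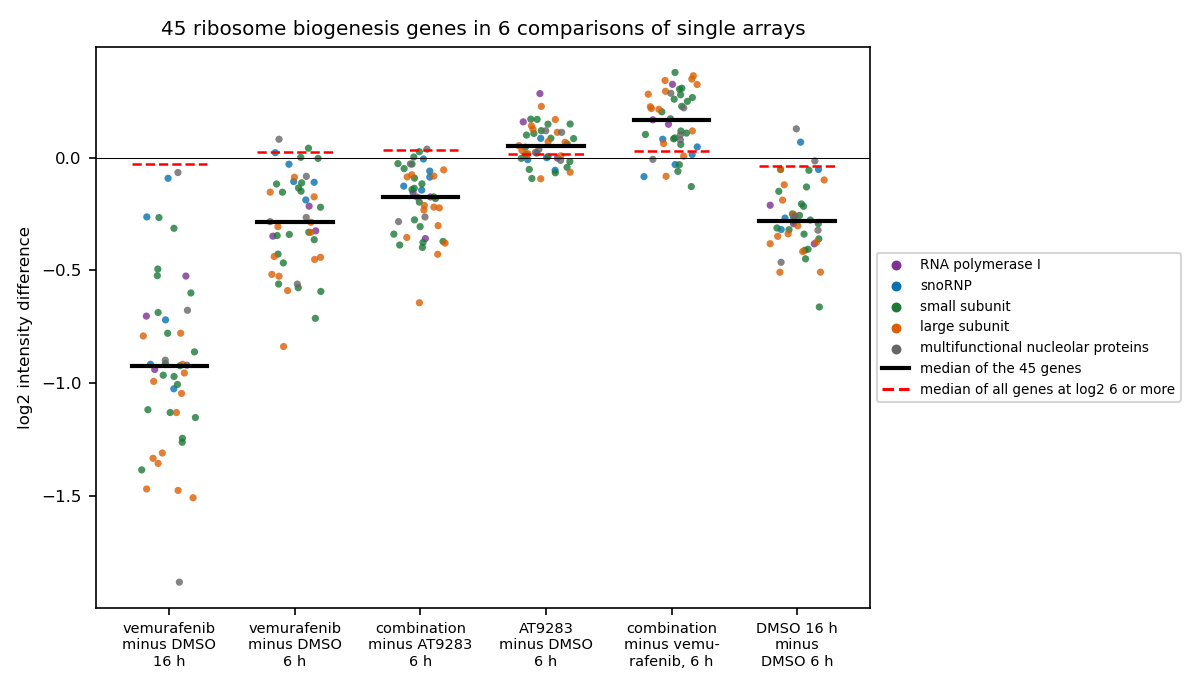
Log2 intensity difference of each member (points coloured by role) in 6 comparisons of single arrays, with the median of the 45 members (black bar) and that of genes with a mean log2 intensity of at least 6 (red dashes). The members' medians are -0.92, -0.29 and -0.17 in the 3 vemurafenib comparisons, 0.05 and 0.17 where AT9283 was added, and -0.28 between the DMSO arrays.

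The vemurafenib difference was also read on an AT9283 background, as the combination minus AT9283. No member fell 2-fold (background 1.97%) or rose (0.452%), and URB2, at -0.64, was the one member 1.5-fold lower (background 4.49%). The median was -0.17 against 0.03, with 42 of 45 below 0 (background 41.3%). This comparison and the vemurafenib pairs at 6 h and 16 h use 6 different arrays. In all 3, 39 of 45 members (86.7%) were lower, against 28.7% of genes with a mean log2 intensity of at least 6. They included 13 of 13 large-subunit factors, 3 of 3 RNA polymerase I subunits, 15 of 19 small-subunit factors, 4 of 5 snoRNP proteins and 4 of 5 multifunctional proteins. These counts hold for the probe sets used, as the other POLR1A probe set at the floor gave 0.11 with vemurafenib at 6 h. The 6 members not lower in all 3 were NHP2, IMP4, HEATR1, NOC4L, NAT10 and NPM1. The vemurafenib difference was lower with AT9283 than without it for 10 of 45 members (background 45.7%) and higher, which mostly means nearer to 0, for 35, with a median of 0.09 and values up to 0.32 for IMP3 and 0.30 for LYAR.

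A limma fit over all 6 arrays, with vemurafenib, AT9283 and time as main effects, left 2 residual degrees of freedom, and its residual holds the change of the drug effect with time and with the other drug rather than replicate error. The vemurafenib estimate was negative for 44 of 45 members. None of the 45 passed a Benjamini-Hochberg adjusted p of 0.05 in limma (backgrounds 3.33% of 9707 genes lower and 1.44% higher), while 24 had an unadjusted p under 0.05, as did 31.3% of all genes. In limma URB2 came nearest, at -0.95 ± 0.16 (SE) with an adjusted p of 0.0529, followed by DDX10 at -0.58 ± 0.10 (SE) with an adjusted p of 0.0598. Leaving out either 16 h array lets the other be fitted exactly, so that the 4 arrays at 6 h alone give the estimate, with 1 residual degree of freedom. Then 25 members were called lower by limma, with 14.1% of all genes called lower without the DMSO array and 15% without the vemurafenib array. Leaving out any array at 6 h gave 0 called members.

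The rest of the pathway was read from lists that hold no member. Of 77 other assembly factors measured, 8 fell at least 2-fold with vemurafenib at 16 h, none rose and 74 were below 0, with a median of -0.67. The backgrounds are those of the members, 5.79% lower, 5.19% higher and 52.5% below 0, for this and the following lists. The lowest were PNO1 at -1.50, a partner of NOB1, PAK1IP1 at -1.47 and the GTPase GNL2 at -1.19. Of 17 other RNA polymerase I genes, 2 fell: TAF1A at -1.53, part of the promoter selectivity factor, and POLR1G at -1.15, a subunit of the enzyme. That list's median was -0.37, with 12 below 0. It also holds subunits named for RNA polymerase II: POLR2E (0.21), POLR2L (0.19), POLR2F (-0.37), POLR2K (-0.37) and POLR2H (-0.44). The median is the value of POLR2F, so it does not describe genes of RNA polymerase I alone. Of the 11 RNA exosome genes, which trim precursor RNA, EXOSC9 fell by 1.40 and EXOSC2 by 1.07 on the log2 scale, and 10 were below 0. Ribosomal protein genes stood apart in value: of 57, none fell or rose, 8 were below 0 and the median was 0.05. This list was drawn by symbol and includes paralogs, 2 of which set its range, RPL39L at -0.34 and RPS27L at 0.37. At 16 h, 54 of these 57 genes and 74 of the 77 other assembly factors reached the floor. Only those could be called.

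**Figure D4:**
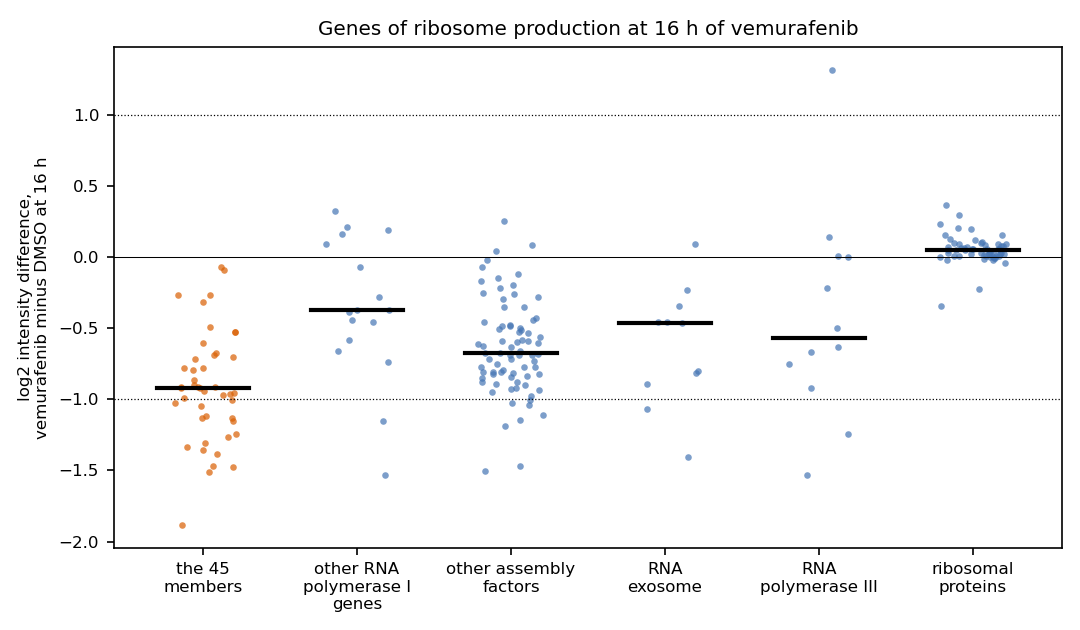
Log2 difference of vemurafenib minus DMSO at 16 h for the 45 members and for 5 other lists of the pathway, with 1 point per gene and a bar at each list's median. The medians are -0.92 for the members, -0.67 for other assembly factors, -0.37 for other RNA polymerase I genes and 0.05 for ribosomal proteins, whose points lie in a narrow band around 0.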

How the data were processed

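A single table of 54675 probe sets on 6 Affymetrix arrays was used. The authors deposited intensities on a linear scale, made with RMA per the submitters' processing notes. Whether the arrays of both times were normalized in 1 run is not stated. The deposited intensities were converted to log2. Of the probe sets, 41097 had 1 gene symbol in the platform annotation, 1801 several and 11777 were not listed. Some 1118 probe sets (2.05%), in 6 stretches, had 6 h values out of step with those at 16 h, and these and 62 control probe sets were left out. They held no probe set of a member. Over them the DMSO arrays had an r of 0.455 as deposited and 0.984 reordered, against 0.992 elsewhere.

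The median intensity per array was 19.8 to 21.3, and 44.7% to 46.1% of genes per array read at least log2 6. Members and lists were chosen with earlier results of these data known. Values of every array are given for RNA polymerase I subunits, NCL, NPM1, FBL, members past 2-fold, and the lowest and highest member of each role group at 16 h. In other lists, up to 3 genes past 2-fold were named in each direction. limma 3.58.1 (R 4.3.3) fitted log2 values with eBayes trend over genes with at least 1 array at log2 6, and p-values were adjusted over them by Benjamini-Hochberg. Both the differences and the fit were tested on simulated data. There the vemurafenib effect was the same at both times, and larger than any member's limma estimate. The simulation thus does not show how the fit handles a smaller effect or one that changes with time. Alternatives changed the probe set rule, normalization, offset, floor, fold, control array, the misaligned probe sets and the arrays entering the fit. Python 3.11.15 was used otherwise.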

Additional observations from a re-analysis of the deposited data

Results flagged for a closer look

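For 4 members the vemurafenib pair at 16 h and that at 6 h had opposite signs on the probe set used. NHP2, of the box H/ACA snoRNPs, differed by -0.09 at 16 h and by 0.0218 at 6 h. HEATR1, the processome scaffold, differed by -0.52 at 16 h and by 0.0416 at 6 h. Its other probe sets at the floor at both times did not change sign. They gave -0.62 and -0.51 at 16 h, and -0.01 and -0.09 at 6 h. NAT10, the rRNA acetyltransferase, differed by -0.31 at 16 h and by 0.0012 at 6 h. NPM1, the nucleolar chaperone, differed by -0.07 at 16 h and by 0.0814 at 6 h. Its other probe sets did not change sign either, at -0.20 and -0.17 at 16 h, and -0.02 and -0.04 at 6 h. With 1 array per condition the difference between times was not tested. On the probe sets used, all 4 values at 6 h are smaller than the SD of AT9283 minus DMSO over genes with a mean log2 intensity of at least 6, which is 0.123.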

How the results depend on the processing

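Leaving out the misaligned probe sets, putting them back or reordering them moved none of the members, and quantile normalization left each summary of the report within its limits. A 1.5-fold rule gave, among members, 37 lower with vemurafenib at 16 h (background 14.9%) and 4 at 6 h (5.05%). It gave 1 for the combination minus AT9283 (4.49%) and 1 for DMSO at 16 h minus 6 h (1.13%). For vemurafenib at 16 h minus 6 h it gave 37 (13.1%). Against the average of the 2 DMSO arrays, 27 members fell at 16 h, and 4 (AT9283) and 21 (combination) members were below 0. No share over all genes was taken for this control. The medians were -1.07 (vemurafenib, 16 h), -0.15 (vemurafenib, 6 h), 0.19 (AT9283) and 0.0116 (combination, reversed). Without probe sets marked _s_, _x_ or _a_, only 38 members were left, so member counts under this setting have a smaller base. RRP12 (0.20) and NOC2L (0.33) reversed on probe sets under the floor, and the snoRNP median was -0.92. Of the 38, 7 (AT9283 minus DMSO) and 4 (combination minus vemurafenib) were below 0. No share over all genes is given for these counts. In limma 34 members were tested and 1 was called lower, against 4.16% of 6804 genes. At 16 h, 1 other RNA polymerase I gene and 5 other assembly factors (median -0.53) fell. So did 1 exosome (median -0.64) and 1 RNA polymerase III gene. These lists may also have a smaller base here, as 16668 genes were left of 19676. Neither their sizes nor a share over all genes is given for this setting. With the mean over a gene's probe sets, the other RNA polymerase I median was -0.19, that of other assembly factors -0.55 and of RNA polymerase III -0.44, 1 exosome and 1 RNA polymerase III gene fell, and limma called 212 genes lower. An offset of 16 left 5 other assembly factors, and median centring 7 members below 0 with AT9283. On the 4 DMSO and vemurafenib arrays limma called 81 genes lower, with a members' median of -0.59. Leaving out 1 array at a time, limma called 20 to 1397 genes and 0 to 25 members lower, with a members' median of -0.59 to -0.23. The AT9283 and time terms of the limma fit compare vemurafenib within its 3 pairs of arrays. The cause of these shifts was not tested.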

Other observations

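RNA polymerase III, which makes transfer RNA and a small ribosomal RNA, held genes that moved in both directions with vemurafenib at 16 h. Of 12 genes measured, POLR3K fell by 1.53 and POLR3G by 1.24 on the log2 scale, while POLR3GL rose by 1.32. POLR3G and POLR3GL are paralogs that occupy the same place in alternative forms of the enzyme. At 6 h POLR3GL was 0.61 higher with vemurafenib than in DMSO. The list's median at 16 h was -0.57.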
